A study of Mus musculus with 12 samples.

Results

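The activin system of cultured aortic adventitial fibroblasts was examined through 8 genes taken by name from a table of 54352 gene symbols. They were the ligand subunits Inhba and Inhbb, the follistatin-family genes Fst, Fstl3 and Fstl1, the type I receptor Acvr1b and the type II receptors Acvr2a and Acvr2b. All 8 were found, and all 8 passed the filter on low counts in each comparison. Bulk RNA was sequenced from 12 cultures of primary adventitial fibroblasts, which are the matrix-making cells of the vessel's outer coat. The cells had grown out of pieces of adventitia from wild-type C57BL/6 mice, aged 14 weeks in the sample labels (the study's methods give a younger age and name male mice), in DMEM with 5% FBS. The 4 groups were descending control, descending TGFβ, ascending control and ascending TGFβ, with 3 libraries each. The ascending tissue included the aortic root, the descending tissue was the descending thoracic aorta, TGFβ was mouse TGFβ at 10 ng/mL for 48 h, and controls received the solute alone. The cultures came from fewer mice than there were cultures, and which cultures shared an animal is not stated, so p-values measure the spread between these cultures, which may in part be technical.

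Activins are dimers of inhibin β subunits: Inhba encodes the subunit of activin A and Inhbb that of activin B. They bind the type II receptors Acvr2a or Acvr2b, which recruit and phosphorylate the type I receptor Acvr1b (ALK4), and the signal passes to SMAD2 and SMAD3, the same mediators that TGFβ uses. Follistatin (Fst) and follistatin-like 3 (Fstl3) are secreted proteins that bind activins and keep them from their receptors, whereas Fstl1 is a secreted glycoprotein that carries a follistatin domain and is not known for tight activin binding. Activin A is a product of many fibroblasts and has been tied to wound repair and fibrosis.

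All 8 are protein-coding genes of the GENCODE annotation of GRCm38. Inhba lies at chr13:16011851-16031621 on the plus strand and Inhbb at chr1:119415465-119422248 on the minus strand. Of the follistatin-family genes, Fst lies at chr13:114452290-114458951 (minus), Fstl1 at chr16:37776873-37836514 (plus) and Fstl3 at chr10:79777272-79782630 (plus). The receptors lie at chr15:101174067-101213684 (Acvr1b), chr2:48814109-48903269 (Acvr2a) and chr9:119402118-119434995 (Acvr2b), all on the plus strand. The share of 50-base exon sequences that also occur in exons of another gene, on either strand, was 46.2% for Fstl3, 6.98% for Acvr2a, 5.35% for Fstl1, 1.40% for Fst, 0.537% for Inhba and 0 for Inhbb, Acvr1b and Acvr2b. The Fst overlap is with the antisense gene Gm47040, which had 0 to 2 counts per library, and that of Fstl1 is mostly with Gm11261.

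Library totals ran from 16250126 to 23892943 counts. Descending control replicate 3 stood apart from the other libraries. Only 13031 genes had a count in it (elsewhere 19337 to 20931), and mitochondrial genes took 11.02% of the total (elsewhere 0.703% to 1.03%). The biological coefficient of variation of descending control was 63.3% with this library and 4.82% without it, and that of the other groups ran from 3.48% to 6.39%. Each comparison that uses descending control is therefore given with all libraries and without replicate 3, which leaves 2 descending controls. The fibroblast markers Col1a1, Col1a2, Col3a1, Pdgfra, Dcn and Lum were present in every library, with summed levels between 12306 and 24783 normalized CPM (counts relative to the library's TMM-scaled total). Group means of Col1a1 and Col1a2 were higher with TGFβ at both sites, and those of Col3a1, Pdgfra, Dcn and Lum were lower. In ascending fibroblasts Pdgfra went from 184 to 55.2, Dcn from 197 to 85.4 and Lum from 17.7 to 2.28. In descending fibroblasts, without control replicate 3, they went from 376 to 84.8, from 115 to 38.1 and from 8.12 to 1.01. Summed endothelial markers were at most 1.40 normalized CPM, and Tie1 was at 0 in every library. The 5 smooth muscle markers summed to 114 to 190 in descending control and 231 to 247 in descending TGFβ, and to 79.1 to 84.6 in ascending control and 106 to 116 in ascending TGFβ. These markers did not move together. In ascending fibroblasts mean Cnn1 rose with TGFβ from 11.2 to 43.3 and Lmod1 from 42.8 to 51.1. Myh11 fell there from 24.1 to 15.6 and Des from 2.99 to 1.18, and Myocd was at most 0.731 in any library. The sum of 190 was that of descending control replicate 3, where Myh11 (83.8) and Lmod1 (93.3) were highest but Cnn1 was at 11.2. The 5 macrophage markers summed to 341 in ascending control replicate 2, to 51.1 and 56.1 in the other ascending controls and to at most 45.0 elsewhere. Without ascending control replicate 2, edgeR called 7 of the 8 genes described here in the TGFβ comparison of ascending fibroblasts, where it called 52.3% of all genes. The part of these cells in the differences below was not tested. In bulk RNA, fewer cells of a type and less RNA per cell cannot be told apart. Acta2, a smooth muscle actin gene that TGFβ raises in fibroblasts, rose with TGFβ by 1.72 ± 0.03 (log2, SE) in ascending and by 1.76 ± 0.09 in descending fibroblasts.

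With TGFβ, Inhbb fell sharply and Fstl3 rose several-fold at both sites. In ascending fibroblasts Inhba rose and Acvr1b fell slightly. In descending fibroblasts neither passed edgeR's test fitted on that site's 6 libraries, and both passed without control replicate 3. In ascending fibroblasts 7 of the 8 genes changed, 5 upward (Inhba, Fst, Fstl1, Fstl3, Acvr2a) and 2 downward (Inhbb, Acvr1b), at an adjusted p under 0.05 in edgeR's quasi-likelihood test. Across all 13917 genes tested there, 55.8% changed, so a share of 7 in 8 stood against a background in which most genes moved. In a shared fit of all 12 libraries, where 16% of all genes changed, the calls of Inhba, Fstl1 and Acvr2a were lost (edgeR adjusted p = 0.295, 0.632 and 0.151) at log2 fold changes of 0.50, 0.14 and 0.32. In descending fibroblasts 2 of 8 changed in edgeR's test with all libraries (Fstl3 up, Inhbb down), where 8.07% of all genes changed. At an unadjusted p under 0.05 it was 4 of 8, and 23.5% of all genes. With the same libraries DESeq2 called 4 of 8 and 18.4% of all genes, and limma voom with sample quality weights 5 of 8 and 53.1%. Without descending control replicate 3, edgeR called 5 of 8 (Inhba, Fstl3 and Acvr2a up, Inhbb and Acvr1b down), where 52.9% of all genes changed. The median absolute log2 fold change of the 8 genes, beside that of all genes tested, was 0.45 and 0.28 in ascending fibroblasts. In descending fibroblasts it was 0.52 and 0.43, or 0.46 and 0.31 without control replicate 3.

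**Figure D1:**
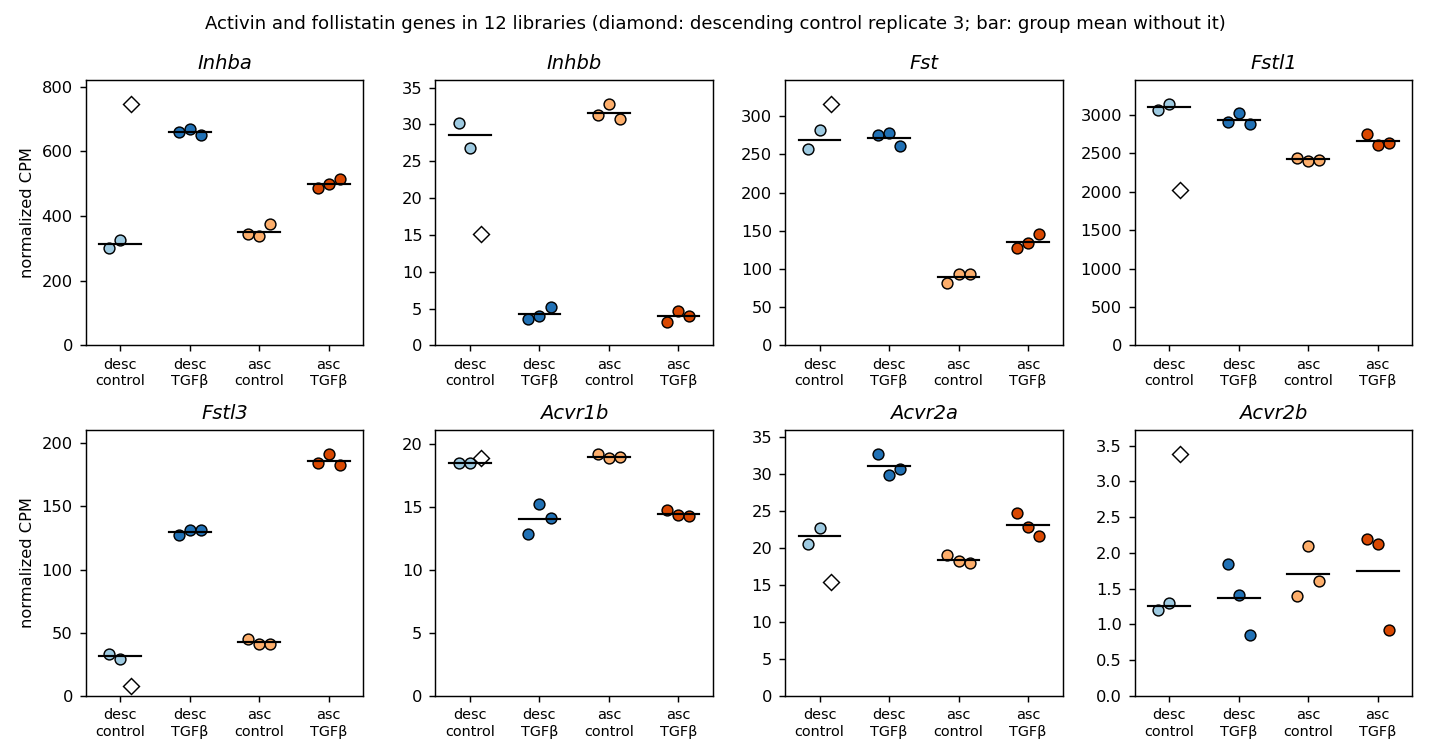
Normalized CPM (counts scaled to library size, vertical axes) of the 8 genes in the 12 libraries, by site (desc, descending; asc, ascending) and treatment on the horizontal axes. Circles are libraries, the open diamond is descending control replicate 3, and bars are group means without it; Inhbb is at 26.9 or more in the controls other than that library (15.1) and at 5.20 or less with TGFβ, and Fst is lower in ascending than in descending fibroblasts with either treatment.

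Inhba, the activin A subunit, was the more abundant ligand gene. Its normalized CPM was 345, 337 and 374 in the ascending controls and 487, 498 and 514 with TGFβ. Descending fibroblasts had 301, 326 and 747 in control replicates 1 to 3, and 659, 671 and 652 with TGFβ. Groups did not overlap in ascending fibroblasts, whereas in descending fibroblasts control replicate 3 lay above all TGFβ libraries and the other controls lay below them. The rise with TGFβ was 0.50 ± 0.04 (log2 fold change, SE; edgeR's quasi-likelihood test, Benjamini-Hochberg adjusted p = 5.46e-09) in ascending fibroblasts. In descending fibroblasts it was 0.52 ± 0.37 (edgeR adjusted p = 0.450) with all libraries and 1.08 ± 0.05 (edgeR adjusted p = 2.23e-17) without control replicate 3. In edgeR's and DESeq2's fits the call and the size of the descending change thus differed with and without that library. Limma voom, which gives libraries quality weights, had 1.06 ± 0.06 (adjusted p = 3.00e-11) with all of them.

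Inhbb, the activin B subunit, moved the other way and by more. Its normalized CPM fell from 31.3, 32.8 and 30.7 in the ascending controls to 3.19, 4.64 and 3.95 with TGFβ, a log2 fold change of -3.00 ± 0.10 (edgeR adjusted p = 1.71e-13). Descending fibroblasts had 30.2, 26.9 and 15.1 in the controls and 3.52, 3.96 and 5.20 with TGFβ, a log2 fold change of -2.51 ± 0.32 (edgeR adjusted p = 0.00977) with all libraries and -2.74 ± 0.13 (edgeR adjusted p = 1.22e-17) without control replicate 3. Every TGFβ library lay below every control library at its site, control replicate 3 included. Counts behind the TGFβ values were low, between 61 and 110 per library. With all descending libraries, the call was lost when any descending TGFβ library was left out, with edgeR adjusted p between 0.0572 and 0.0818.

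With these opposite changes the make-up of the ligand RNA shifted. On a per-length scale (normalized RPKM, the normalized CPM per 1000 bases of exon), Inhbb gave 11.9% ± 0.890 (SD, n = 3) of the summed Inhba and Inhbb level in ascending control and 1.16% ± 0.204 with TGFβ. In the descending groups it gave 13.1% and 11.01% in control replicates 1 and 2, 2.95% in replicate 3 and 0.953% ± 0.205 with TGFβ. The share was thus higher in each control library than in each TGFβ library, and no test was run on these ratios.

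The sequences upstream of both ligand genes and of Fstl3, the 3 genes whose change with TGFβ is described in most detail, are shown for their contrast in base composition and motifs. They are the 250 bases before each RefSeq transcription start on GRCm38.p6, 5′ to 3′ on the gene's strand, at chr13:16011601-16011850 (plus strand) for Inhba, chr1:119422249-119422498 (minus strand) for Inhbb and chr10:79777024-79777273 (plus strand) for Fstl3. Capitals mark matches to CAGAC, a short form of the SMAD-binding element, read on either strand.
Inhba: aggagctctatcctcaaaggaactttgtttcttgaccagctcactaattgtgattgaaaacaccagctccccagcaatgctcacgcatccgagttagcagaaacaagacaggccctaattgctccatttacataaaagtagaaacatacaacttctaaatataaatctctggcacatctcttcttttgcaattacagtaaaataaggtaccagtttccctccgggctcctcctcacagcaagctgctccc
Inhbb: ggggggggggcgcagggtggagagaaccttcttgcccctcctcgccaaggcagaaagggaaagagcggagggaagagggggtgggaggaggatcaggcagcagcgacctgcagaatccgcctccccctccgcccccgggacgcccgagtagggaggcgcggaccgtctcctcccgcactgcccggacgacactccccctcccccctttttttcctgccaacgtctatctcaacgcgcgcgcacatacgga
Fstl3: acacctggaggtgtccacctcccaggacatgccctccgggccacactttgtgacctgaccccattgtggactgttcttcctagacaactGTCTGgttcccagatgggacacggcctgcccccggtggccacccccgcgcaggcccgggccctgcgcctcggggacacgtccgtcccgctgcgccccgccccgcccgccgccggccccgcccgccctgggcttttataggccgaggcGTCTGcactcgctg
RefSeq gave a promoter for 7 of the 8 genes. The 250 bases before Inhba had a GC content of 43.2%, below the median of 52.4% over 32851 mouse promoters, whereas those of Inhbb (68.0%) and Fstl3 (71.2%) were above it. CAGAC on either strand occurred in 3 of the 7 windows, at 161 and 14 bases before the start of Fstl3, at 188 for Acvr2a and at 233 for Acvr2b. It occurred in 42.2% of all 32851 windows of this length. TGANTCA, the AP-1 motif, which does not contain CAGAC, was on either strand in 0 of the 7 windows and in 6.75% of all. A match is a description of letters and not of a bound site.

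Fstl3, which encodes a secreted activin-binding glycoprotein, rose most of the 8 genes. Its normalized CPM was 45.0, 41.0 and 40.9 in the ascending controls and 185, 191 and 183 with TGFβ, a log2 fold change of 2.13 ± 0.05 (edgeR adjusted p = 5.16e-16). In descending fibroblasts it was 33.1, 29.2 and 7.59 in the controls and 128, 131 and 131 with TGFβ. The descending log2 fold change was 2.47 ± 0.53 (edgeR adjusted p = 0.0444) with all libraries and 2.06 ± 0.06 (edgeR adjusted p = 1.33e-21) without control replicate 3. The groups did not overlap at either site, and control replicate 3 lay far below the other descending controls. With all descending libraries, leaving out any library other than control replicate 3 ended the call, with edgeR adjusted p between 0.0861 and 0.169. Its shared exon sequence is mostly with Prss57 on the opposite strand. Whether counting used strand, and how reads matching both genes were treated, is not stated. Prss57 itself had 0 to 6 counts per library. Whether shared reads were left out of the Fstl3 counts was not tested, and the per-length levels and ratios of Fstl3 below carry this limit.

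Fst, follistatin itself, differed between the sites more than with treatment. Its normalized CPM was 82.2, 93.1 and 93.6 in the ascending controls and 128, 133 and 146 with TGFβ, without overlap. At the descending site Fst was at 257, 281 and 316 in the controls and 276, 278 and 261 with TGFβ, with overlapping groups. The change with TGFβ was 0.59 ± 0.06 (log2; edgeR adjusted p = 1.04e-07) in ascending fibroblasts and -0.08 ± 0.12 (edgeR adjusted p = 0.749) in descending fibroblasts, or 0.02 ± 0.05 (edgeR adjusted p = 0.828) without control replicate 3. Every descending library, replicate 3 included, lay above every ascending library.

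Fstl1 was by far the most abundant of the 8 genes and changed little. Its normalized CPM was 2443, 2403 and 2422 in the ascending controls and 2749.7, 2616 and 2635 with TGFβ. The ascending groups did not overlap, and the log2 fold change was only 0.13 ± 0.03 (edgeR adjusted p = 0.000244). At the descending site Fstl1 was at 3064, 3146 and 2029.9 in the controls and 2905, 3026 and 2878 with TGFβ. The change there was 0.09 ± 0.18 (edgeR adjusted p = 0.805), or -0.08 ± 0.05 (edgeR adjusted p = 0.151) without control replicate 3.

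By mean RPKM, the level per gene length, the receptors lay below Inhba and the follistatin-family genes in every group. Acvr1b, the type I receptor, ran from 18.8 to 19.2 normalized CPM in the ascending controls and from 14.3 to 14.7 with TGFβ, and from 18.4 to 18.8 in the descending controls and from 12.8 to 15.2 with TGFβ. The groups did not overlap at either site, and for this gene control replicate 3 (18.8) lay with the other descending controls. Acvr1b fell by 0.40 on the log2 scale (SE 0.07, edgeR adjusted p = 0.000166) in ascending fibroblasts. In descending fibroblasts the log2 fold change was -0.41 ± 0.14 (edgeR adjusted p = 0.150), or -0.39 ± 0.10 (edgeR adjusted p = 0.00153) without control replicate 3. With every library kept, Acvr1b also passed there in the shared fit of 12 libraries (edgeR adjusted p = 0.0128), in DESeq2 (adjusted p = 0.0479) and in limma voom (adjusted p = 0.00124).

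Acvr2a, the more abundant type II receptor, went up where Acvr1b went down. It ran from 17.98 to 19.1 normalized CPM in the ascending controls and from 21.7 to 24.7 with TGFβ, a log2 fold change of 0.32 ± 0.07 (edgeR adjusted p = 0.00119). At the descending site it was at 20.6, 22.7 and 15.5 in the controls and 32.7, 29.9 and 30.8 with TGFβ. The descending change was 0.66 ± 0.18 (edgeR adjusted p = 0.0835), or 0.53 ± 0.08 (edgeR adjusted p = 3.31e-06) without control replicate 3. With all libraries Acvr2a also passed in the shared fit of 12 libraries (edgeR adjusted p = 0.00485), in DESeq2 (adjusted p = 0.00624) and in limma voom (adjusted p = 3.36e-05). Groups did not overlap at either site. Acvr2a shares exon sequence with Orc4 on the opposite strand, which had 560 to 970 counts per library. Orc4 is thus itself well counted, and whether its reads entered the Acvr2a counts was not tested.

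Acvr2b, the other type II receptor, had 18 to 49 counts per library, 0.851 to 3.38 normalized CPM, and its groups overlapped in ascending and in descending fibroblasts. Its log2 fold change with TGFβ was 0.04 ± 0.31 in ascending and -0.52 ± 0.60 in descending fibroblasts (0.12 ± 0.35 without control replicate 3), with edgeR adjusted p of 0.925, 0.646 and 0.798. At this depth only changes well above these standard errors could have been detected. Acvr2a gave 88.2% ± 2.41 (SD, n = 3) of the summed per-length level of both type II receptors in ascending control, 90.3% ± 3.37 after TGFβ there, and 94.1% ± 1.88 after TGFβ in descending cells. In descending control it gave 92.2% and 92.3% in replicates 1 and 2 and 76.0% in replicate 3.

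**Figure D2:**
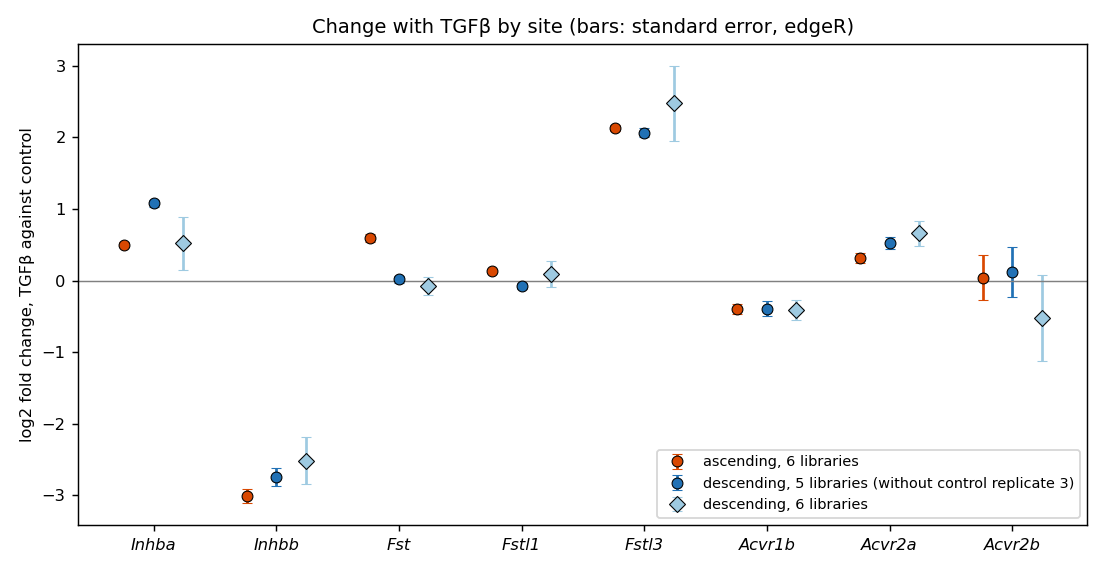
Log2 fold change with TGFβ against control (vertical axis) for each of the 8 genes, in ascending fibroblasts (6 libraries) and in descending fibroblasts with and without control replicate 3 (6 and 5 libraries); bars are standard errors from edgeR. Inhbb lies between -3.00 and -2.51 and Fstl3 between 2.06 and 2.47 in all 3 fits, while Fst is at 0.59 in ascending and near 0 in descending fibroblasts.

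The next comparison asked whether the genes differed between the sites without TGFβ. Fst stood out: its level in ascending control was lower than in descending control by a log2 difference (ascending minus descending) of -1.66 ± 0.13 (edgeR adjusted p = 0.00482) with all libraries and -1.58 ± 0.06 (edgeR adjusted p = 1.89e-10) without descending control replicate 3. In edgeR's test with all libraries Fst alone of the 8 genes passed, where 2.65% of all genes differed, and its call was lost when any ascending control was left out, with edgeR adjusted p between 0.0577 and 0.0666. Limma voom with all libraries called 5 of 8 (Inhba, Fst, Fstl1, Fstl3 and Acvr2a) and 31.2% of all genes. Without descending control replicate 3, edgeR called 4 of 8, where 31.6% of all genes differed. Inhba and Fstl3 were then higher in ascending controls, by 0.18 ± 0.05 (edgeR adjusted p = 0.0143) and 0.45 ± 0.07 (edgeR adjusted p = 0.000247). Fstl1 was lower in them, with -0.35 ± 0.03 (edgeR adjusted p = 1.78e-07). With all libraries the corresponding differences were -0.38 ± 0.37 for Inhba, 0.87 ± 0.51 for Fstl3 and -0.18 ± 0.18 for Fstl1, so the sign for Inhba turned with the library. Inhbb (0.40 ± 0.26 with all libraries and 0.16 ± 0.07 without replicate 3, edgeR adjusted p = 0.536 and 0.108) and the receptors did not pass in either edgeR fit. The median absolute log2 difference of the 8 genes was 0.29 with all libraries, against 0.36 for all genes tested, and 0.28 against 0.19 without replicate 3.

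Under TGFβ, where no library stood apart, 5 of 8 genes differed between the sites, against 36.3% of all genes tested. Fstl3 was higher in ascending fibroblasts, by 0.52 ± 0.04 (edgeR adjusted p = 9.17e-12). Inhba, Fst, Fstl1 and Acvr2a were lower there, with differences of -0.40 ± 0.04, -0.999 ± 0.05, -0.14 ± 0.03 and -0.43 ± 0.07 (edgeR adjusted p = 2.06e-10, 5.63e-17, 0.00194 and 1.38e-05). Inhbb (-0.11 ± 0.19), Acvr1b (0.04 ± 0.09) and Acvr2b (0.36 ± 0.33) had edgeR adjusted p of 0.704, 0.761 and 0.420. The 2 activin-binding genes thus differed between the sites in opposite directions, Fst higher in descending and Fstl3 higher in ascending fibroblasts. The median absolute log2 difference of the 8 genes was 0.38, against 0.17 for all genes tested. In a shared fit of all 12 libraries, where 7.56% of all genes differed, only Fst kept its call, and edgeR adjusted p ran from 0.0908 (Acvr2a) to 0.875 (Fstl1) for the other 4, with the same directions.

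Whether the response to TGFβ itself differed by site was tested as the interaction, positive where the change was more positive in ascending fibroblasts. With all 12 libraries and the default filter on low counts, 0 of the 8 genes passed in edgeR's test, where 0.806% of all 14637 genes did. At an unadjusted p under 0.05 it was 1 of 8 (Fst), and 10% of all genes. With the filter at 10 or more counts in every library, edgeR called 1 of 8 (Fst) and 1.5% of all genes. DESeq2's Wald test called 1 of 8 (Fst) and 4.05% of all genes, and limma voom with sample quality weights 3 of 8 and 13.5% of all genes. The Fst interaction was 0.67 ± 0.14 (log2, edgeR adjusted p = 0.0568). Without descending control replicate 3, 3 of 8 passed, where 13.5% of all genes did. Fst (0.58 ± 0.08, edgeR adjusted p = 7.78e-06) and Fstl1 (0.22 ± 0.05, edgeR adjusted p = 0.00158) changed more positively in ascending fibroblasts. Inhba rose more in descending fibroblasts, with an interaction of -0.58 ± 0.06 (edgeR adjusted p = 2.32e-07), against -0.03 ± 0.39 (edgeR adjusted p = 0.977) with all libraries. Inhbb and Fstl3, the genes with the largest changes, had interactions of -0.26 ± 0.18 and 0.07 ± 0.08 without that library (edgeR adjusted p = 0.427 and 0.623), and -0.50 ± 0.36 and -0.33 ± 0.53 with it (edgeR adjusted p = 0.606 and 0.779). Those p-values do not show that the responses were equal. The median absolute interaction of the 8 genes was 0.34 with all libraries, against 0.36 for all genes, and 0.21 against 0.18 without that library.

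On the per-length scale the order of the levels was similar in the groups. Averaged over 11 libraries, without descending control replicate 3, and ranked among 14546 genes, Fstl1 was 47th, Inhba 572nd, Fstl3 1062nd and Fst 1127th, whereas Acvr2a (6984th), Inhbb (7343rd), Acvr1b (7397th) and Acvr2b (12546th) were lower. In ascending control the normalized RPKM was 493 ± 4.16 (SD, n = 3) for Fstl1, 55.1 ± 3.07 for Inhba, 19.5 ± 1.40 for Fst, 17.3 ± 0.955 for Fstl3, 7.42 ± 0.254 for Inhbb, 4.30 ± 0.0383 for Acvr1b, 3.24 ± 0.108 for Acvr2a and 0.433 ± 0.0923 for Acvr2b. The libraries of Fst and Fstl3 overlapped in this group, and no other neighbours in the order did. With TGFβ at the same site Fstl3 reached 76.2 ± 1.85, overlapping Inhba at 78.2 ± 2.14 and well above Fst at 29.6 ± 2.05, and Inhbb fell to 0.922 ± 0.171, below both Acvr2a (4.06 ± 0.269) and Acvr1b (3.27 ± 0.0559).

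Descending fibroblasts differed from this order in the place of Fst. In descending control replicates 1 and 2 its normalized RPKM was 56.0 and 61.3, above Inhba at 47.0 and 51.0, while in replicate 3 Inhba reached 117 and Fst 68.9. With TGFβ Inhba was at 103 ± 1.46, Fst at 59.2 ± 2.11 and Fstl3 at 53.2 ± 0.841, and the libraries of these neighbours did not overlap. Below them came Acvr2a at 5.48 ± 0.251, Acvr1b at 3.18 ± 0.275, Inhbb at 0.994 ± 0.205 and Acvr2b at 0.348 ± 0.126.

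**Figure D3:**
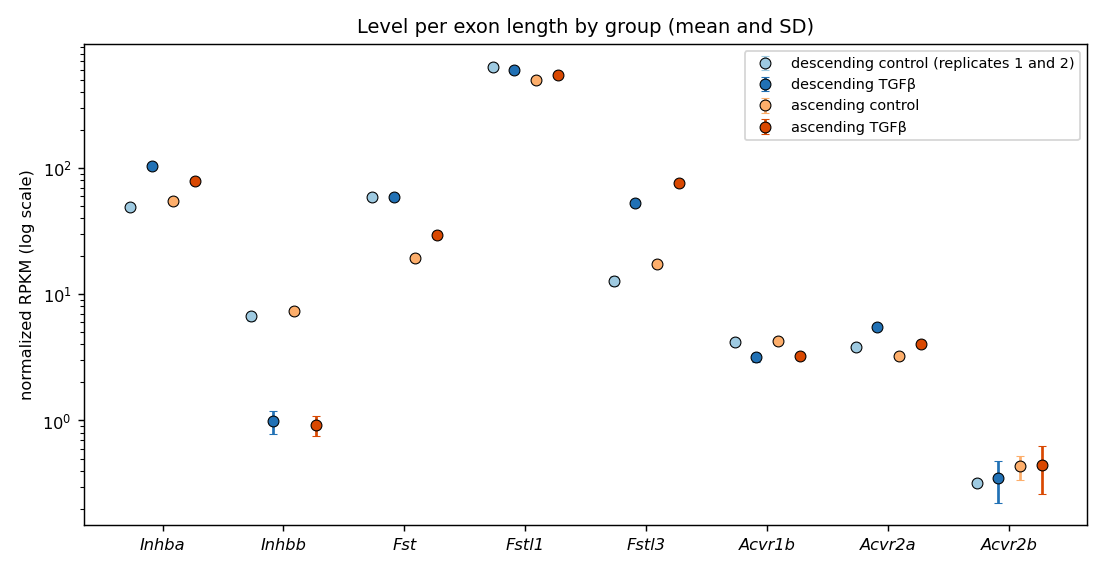
Normalized RPKM (level per 1000 bases of exon, log axis) of the 8 genes in the 4 groups; points are means and bars are SDs of 3 libraries, or of replicates 1 and 2 for descending control. Fstl1 is the highest in every group (493 to 632), and Inhbb lies above the receptors in both controls and below Acvr1b and Acvr2a in both TGFβ groups.

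The balance of binding proteins to ligands also differed by group. Fst per Inhba on the per-length scale was 1.19 and 1.202 in descending control replicates 1 and 2, 0.589 in replicate 3 and 0.572 ± 0.0140 (SD, n = 3) with TGFβ. In ascending fibroblasts it was 0.355 ± 0.0267 in control and 0.378 ± 0.0159 with TGFβ. It was therefore higher in each descending than in each ascending library. Fstl3 made up 47.0% ± 3.19 of the summed Fst and Fstl3 level in ascending control and 72.1% ± 1.66 with TGFβ. Among descending libraries it made up 19.5%, 16.3% and 4.31% in control replicates 1 to 3 and 47.3% ± 1.12 with TGFβ. Within each site, Fstl3 formed a larger share of the activin-binding RNA in each TGFβ library than in each control library. The summed Fst and Fstl3 level per summed ligand level was 0.590 ± 0.0241 in ascending control and 1.34 ± 0.0249 with TGFβ. In descending fibroblasts it was 1.29, 1.28 and 0.598 in control replicates 1 to 3 and 1.08 ± 0.00572 with TGFβ. These are ratios of RNA, not of protein, and were not tested.

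**Figure D4:**
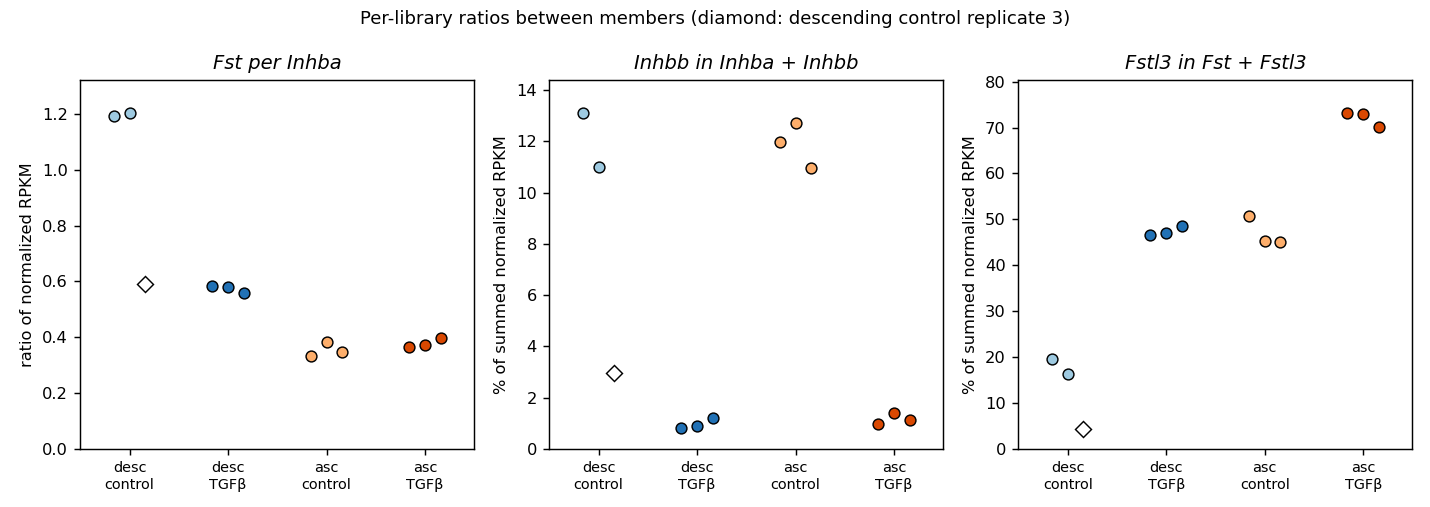
Ratios between genes in each library on the normalized RPKM scale: Fst per Inhba (left), Inhbb as a percentage of Inhba and Inhbb (middle) and Fstl3 as a percentage of Fst and Fstl3 (right), by group; circles are libraries and the open diamond is descending control replicate 3. Inhbb is 10.96% or more of ligand RNA in 5 controls, 2.95% in descending control replicate 3 and 1.38% or less in all TGFβ libraries.

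Other genes of the pathway, 27 in a list of further ligands, receptors, binding proteins, mediators and convertases, changed in both directions. In ascending fibroblasts 16 were tested and 9 changed with TGFβ, 5 higher and 4 lower, beside the 55.8% of all genes. Among receptors, Tgfbr3 (betaglycan, a coreceptor for TGFβ2 and inhibins) fell by 1.93 on the log2 scale (edgeR adjusted p = 5.62e-14), and Acvr1 (ALK2, a type I receptor) rose by 0.75 (edgeR adjusted p = 5.70e-10). Bambi, a pseudoreceptor, rose by 0.52 (edgeR adjusted p = 0.00198). Smad3, a mediator shared by activin and TGFβ, fell by 0.82 (edgeR adjusted p = 1.54e-10), while the inhibitory Smad7 rose by 0.52 (edgeR adjusted p = 3.15e-08). Gdf11, a related ligand that uses the same receptors, fell by 0.53 (edgeR adjusted p = 1.51e-05). The convertases, which cleave precursors of this family, split: Furin rose by 0.64 (edgeR adjusted p = 2.10e-10) and Pcsk6 fell by 0.87 (edgeR adjusted p = 4.10e-11). Zfyve9, the SARA adaptor, rose by 0.15 (edgeR adjusted p = 0.0358), a call that DESeq2 (adjusted p = 0.114) and limma voom (adjusted p = 0.0576) did not make.

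In descending fibroblasts edgeR called 3 of 17 tested pathway genes with all libraries, each lower, beside 8.07% of all genes. They were Tgfbr3 (-2.40, edgeR adjusted p = 0.000905), Smad3 (-1.25, edgeR adjusted p = 0.0100) and Fstl4 (edgeR adjusted p = 0.0467), a follistatin-like gene with 28 to 73 counts per descending control library and 1 to 4 with TGFβ. With the same libraries DESeq2 called these 3 and, as higher, Smad7 and Pcsk5, beside 18.4% of all genes, and limma voom called 4 higher and 5 lower, beside 53.1%. Without control replicate 3, 4 of 18 rose (Acvr1, Smad7, Furin, Pcsk5) and 6 fell (Gdf11, Acvr1c, Tgfbr3, Fstl4, Smad3, Pcsk6), beside 52.9% of all genes. Pcsk5, a convertase, went from 17.3 ± 1.53 (SD, n = 2) to 57.0 ± 6.78 (SD, n = 3) normalized CPM there, a log2 fold change of 1.73 ± 0.09 (edgeR adjusted p = 4.42e-16) that was 1.31 ± 0.31 (edgeR adjusted p = 0.0592) with all libraries. In ascending fibroblasts it was 27.1 ± 1.06 and 28.3 ± 2.44 normalized CPM, with an edgeR adjusted p of 0.494.

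Between the sites, Pcsk6 was higher in ascending fibroblasts in each fit. It was at 198 ± 12.8 normalized CPM in ascending control and 60.2 ± 0.584 in descending control replicates 1 and 2, and at 109 ± 1.27 and 35.3 ± 1.62 with TGFβ. Its log2 difference (ascending minus descending) was 2.01 ± 0.32 (edgeR adjusted p = 0.0352) in controls with all libraries, 1.73 ± 0.06 (edgeR adjusted p = 7.09e-11) without descending control replicate 3, and 1.63 ± 0.05 (edgeR adjusted p = 5.66e-21) under TGFβ. In controls with all libraries edgeR called 1 of 18 tested pathway genes (Pcsk6), beside 2.65% of all genes, DESeq2 called 4 (Pcsk6 higher and Gdf11, Tgfbr3 and Fstl4 lower), beside 8.19%, and limma voom 8, beside 31.2%. Without that library 8 of 19 were called, 4 higher in ascending controls (Smad3, Smad7, Pcsk5, Pcsk6) and 4 lower (Gdf11, Acvr1, Tgfbr3, Fstl4), beside 31.6%. Under TGFβ 8 of 16 were called, 5 higher in ascending fibroblasts (Bambi, Smad3, Smad7, Zfyve9, Pcsk6) and 3 lower (Gdf11, Acvr1, Pcsk5), beside 36.3%. No pathway gene of 18 passed the interaction with all libraries in edgeR's quasi-likelihood test, beside 0.806% of all genes. At an unadjusted p under 0.05 it was 4, beside 10% of all genes, DESeq2 called 2 of 14, beside 4.05%, and limma voom 3, beside 13.5%. Without descending control replicate 3, 3 of 19 passed (Tgfbr3, Smad3 and Pcsk5), beside 13.5%.

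The genes whose levels ran most like those of a member were found for the 4 members whose group means spanned more than 1 on the log2 scale. Pearson's r of log2 CPM was taken over 11 libraries, without descending control replicate 3. These fall into the same 4 groups and so share treatment and site, and r is a description of likeness only. Inhba ran most like Magi1 (0.990), Foxp4 (0.988) and Vav2 (0.988). With the 12th library these became 0.868, 0.638 and 0.120, so the likeness of Vav2 in particular depended on leaving that library out. Inhbb ran most like Arrb1 (0.997), Hspa12b (0.995) and Rras2 (0.994), and over 12 libraries r was 0.996, 0.886 and 0.988. Fst ran most like Nfatc4 (0.987), Zfp354c (0.985) and Serpinf1 (0.983), all of them lower in ascending fibroblasts, with 0.815, 0.983 and 0.974 over 12 libraries. Fstl3 ran most like Clptm1l (0.998), Trim16 (0.996) and Lif (0.996), and over 12 libraries r was 0.996, 0.925 and 0.985. Lif, a cytokine, went from 6.65 to 59.2 normalized CPM in ascending and from 4.32 to 39.0 in descending fibroblasts (group means without descending control replicate 3).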

How the data were processed

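The study deposited 1 table of raw counts. According to the labels and methods, reads were aligned to mm10 with STAR, and the authors counted reads per gene symbol with featureCounts, without normalization. The deposited counts are whole numbers, with 16250126 to 23892943 per library. The strand setting and the treatment of reads matching several genes are not given in the sources used here. Groups follow the site and treatment in the sample titles, and all carry the same batch label. The members and gene lists were chosen with earlier results of these data known.

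Counts were scaled by TMM and tested with edgeR 4.0.16 (R 4.3.3; quasi-likelihood F-test, two-sided, filterByExpr at its defaults, count 10 and total 15), fitted on all genes of the groups compared, with Benjamini-Hochberg adjustment and an adjusted p under 0.05 for a call. A standard error is the log2 fold change divided by the square root of F. Normalized CPM is the count over the effective library size. RPKM divides this by the summed exon length of GENCODE on GRCm38. Log2 CPM used a prior count of 2. Alternatives were DESeq2 1.42.0 (Wald test, or its size factors in edgeR), limma 3.58.1 voom with sample quality weights, no filter, at least 10 counts in every library, the replicate number as a block, all 12 libraries in a shared fit, and each library left out. DESeq2 and a shared fit without descending control replicate 3 were added after seeing the data. Same-numbered libraries had r from -0.0221 to 0.0951 over 18 pairs, and those of different number from -0.100 to 0.0775 over 36 pairs, so the numbers were not taken as pairs. In descending control the deviations follow replicate 3, so pairing could hardly show there. The check cannot exclude cultures that share an animal. The genes named are the 8 members, tested pathway genes of the list, the 3 genes most like a member, markers of cell type and treatment, and genes that share exon sequence with a member. The default edgeR, DESeq2 and limma voom fits of each comparison were first tested on simulated counts. All simulated libraries had the same spread, so that test did not cover a library like descending control replicate 3. The other settings were not simulated. Counting intervals and floors would cover counting error only, as the reads carry no molecular identifiers. An item withheld from this text is not reported here.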

Additional observations from a re-analysis of the deposited data

Results flagged for a closer look

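The change with TGFβ differed between the sites, by the interaction test of edgeR without descending control replicate 3, for 3 of the 8 members, for 3 other pathway genes and for Ctgf, beside 13.5% of all genes tested. The values are log2 differences of the change, ascending minus descending. They were -0.58 for Inhba, 0.58 for Fst and 0.22 for Fstl1. Among pathway genes they were 0.46 for Tgfbr3 and 0.57 for Smad3, which fell less in ascending fibroblasts, and -1.66 for Pcsk5, which rose in descending fibroblasts by 1.73 and had a change of 0.06 in ascending ones. Ctgf, a TGFβ target used to check the treatment, had -0.38. None of these genes passed with all 12 libraries in edgeR's quasi-likelihood test at the default filter on low counts, where Fst, Tgfbr3, Smad3, Pcsk5 and Ctgf had unadjusted p under 0.05. With the filter at 10 or more counts in every library, Fst alone of the members passed that test (1.5% of all genes). With all libraries DESeq2's Wald test called Fst, Tgfbr3, Pcsk5 and Ctgf (4.05% of all genes), and limma voom with sample quality weights called all 7 (13.5% of all genes). The 7 genes were picked for passing without that library, so this is no independent support.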

How the results depend on the processing

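Under 12 libraries in a shared fit, where the spread of descending control replicate 3 entered every comparison, 4 members changed with TGFβ in ascending fibroblasts, 4 in descending fibroblasts and 1 differed by site under TGFβ (Fst), where 16%, 24.4% and 7.56% of all genes were called. DESeq2's Wald test called 4 in descending fibroblasts (18.4% of all genes) and 1 interaction (Fst; 4.05%), and at least 10 counts in every library gave 1 interaction (Fst; 1.5%). Limma voom with sample quality weights called 5 in descending fibroblasts, 5 by site in controls and 3 interactions, beside 53.1%, 31.2% and 13.5% of all genes. Without descending control replicate 3, DESeq2 called 5, 4 and 3 in these comparisons (46%, 26% and 13.9% of all genes), and 11 libraries in a shared fit called 5 and 5 in the first pair (51.3% and 33%). Leaving out each library in turn gave 7 and 5 in ascending fibroblasts and by site under TGFβ (50.3% to 52.3% and 31% to 33.3% of all genes), from 0 to 5 in descending fibroblasts (1.49% to 52.9%), from 0 to 4 by site in controls (0.226% to 31.6%) and from 0 to 3 interactions (0.166% to 13.5%). In the last 3 the upper values were those without descending control replicate 3. In descending fibroblasts 0 were left without any 1 TGFβ library (1.49% to 1.53% of all genes) and 1 without control replicate 1 or 2 (3.38% and 2.64%). By site in controls 0 were left without any 1 ascending control (0.226% to 0.295%), and without descending control replicate 1 there was 1 interaction (Fst; 0.875%). With the replicate number as a block (replicate block), 7 changed in ascending and 0 in descending fibroblasts, 0 differed by site in controls, 5 under TGFβ and 0 had an interaction, and the total calls over all genes were 7766, 95, 0, 5056 and 50. The numbers were not found to pair the samples.

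Counts over all genes moved in the same way. DESeq2 called 2531 genes in descending fibroblasts and 1151 by site in controls, against 1115 and 374 in edgeR, limma voom called 7335 and 4392, and the shared fit of 12 libraries called 2338 in ascending fibroblasts against 7767. Among the alternative values of members' log2 fold changes, 514 kept their direction and side of the threshold, 38 gained the call, 21 lost it and 43 changed sign. The cause was not tested.

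The changes of sign concerned values that edgeR did not call with all libraries. Limma voom called Inhba by site in controls, with the other sign, and the interactions of Inhba and Fstl1. With limma voom Acvr2b was at -0.044 with TGFβ in ascending and 0.0088 in descending fibroblasts, 0.38 by site in controls and -0.038 in the interaction, Fstl1 at -0.088 in descending fibroblasts, Inhba at 0.17 by site in controls and Fstl3 at 0.054 in the interaction. With DESeq2 and all libraries Acvr1b was at -0.00079 in the interaction. With DESeq2 without descending control replicate 3, descending values were 0.020 for Fst, -0.073 for Fstl1 and 0.13 for Acvr2b, site values in controls 0.18 for Inhba and 0.45 for Acvr2b, and interactions 0.056 for Fstl3, -0.020 for Acvr1b and -0.096 for Acvr2b. With 11 libraries in a shared fit they were 0.014, -0.078 and 0.12 in descending fibroblasts and 0.17 and 0.43 by site in controls, in the same order. Leaving out each library, Acvr2b ran from -0.15 to 0.35 with TGFβ in ascending fibroblasts. In descending fibroblasts the ranges were -0.14 to 0.015 for Fst, -0.078 to 0.20 for Fstl1 and -0.79 to 0.12 for Acvr2b. By site in controls they were -0.60 to 0.18 for Inhba, -0.22 to 0.036 for Acvr2a and -0.45 to 0.45 for Acvr2b. By site under TGFβ they were -0.25 to 0.075 for Inhbb and -0.020 to 0.10 for Acvr1b. In the interaction they were -0.58 to 0.20 for Inhba, -0.064 to 0.22 for Fstl1, -0.66 to 0.073 for Fstl3, -0.058 to 0.067 for Acvr1b and -0.075 to 0.85 for Acvr2b.

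Depth limits Acvr2b (18 to 49 counts per library) and Inhbb with TGFβ (61 to 110 counts). The number of cultures, 2 or 3 per group, limits all comparisons with descending control.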
